A study of Mus musculus with 2 samples.

Results

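Spermatogonia with high Stra8 are the male germ cells that carry many transcripts of Stra8, a gene induced by retinoic acid and needed to start meiosis. They were taken from 2 single-cell RNA libraries of C57BL/6 mouse testis at 12 weeks of age, 1 wild type (WT) and 1 homozygous for a global deletion of Alkbh5 (KO), the demethylase that removes N6-methyladenosine from RNA. The introduction of the study describes 1 mouse per genotype and its methods 3, so each library may pool animals, and no difference between WT and KO given here has a replicate check. Members were chosen by measured counts. A barcode, the sequence tag shared by the transcripts of 1 captured cell, was a member with at least 5 Stra8 UMIs (unique molecular identifiers, each standing for 1 captured transcript) and a UMI for at least 3 of Crabp1, Dmrt1, Sall4, Sohlh1, Kit, Rhox13, Stra8 and Zbtb16. It also needed fewer than 3 of the early spermatocyte genes Prdm9, Rad51ap2, Dmc1, Meiob, Gm960 and Inca1, and to stay under limits on Sertoli and Leydig cell transcripts. The rule found 361 of 12768 barcodes, which were 30 of 5756 in WT and 331 of 7012 in KO.

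Spermatogonia arise from stem cells that express Zbtb16, Gfra1 and Upp1, and retinoic acid moves them into differentiation, when Kit and Sohlh1 appear and cyclin D2, encoded by Ccnd2, is induced. After a series of mitotic divisions, a further exposure to retinoic acid lets STRA8 and its partner MEIOSIN, encoded by Gm4969, switch on the meiotic programme in preleptotene spermatocytes. Rec8, which encodes a meiotic cohesin, is another retinoic acid target of that step, and MEIOC protects the meiotic programme afterwards. Stra8 is known to be made at both steps, so high Stra8 alone does not place a germ cell before or at meiotic entry.

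The protein-coding Stra8 gene spans 34920163 to 34939344 on the plus strand of chromosome 6 in GENCODE vM21 (mouse build GRCm38). Retinoic acid receptors bind pairs of a half-site with the letters AGGTCA, and the 250 bases before the RefSeq start of Stra8 (GRCm38.p6) hold 2 exact copies on the plus strand and none on the minus strand. They are shown because this gene chose the members. The first half-site begins 194 bases before the start, inside the stretch chr6:34920744-34920769. The second begins 38 bases before the start, inside the stretch chr6:34920900-34920925. Both stretches are shown with the bases on either side. Capitals mark the half-site.
Stra8 distal half-site: tggggtgaaaAGGTCAtcttgctcct
Stra8 proximal half-site: ctggggtaccAGGTCAgttttttacc
In GENCODE the same 250 bases lie inside an exon of a longer Stra8 transcript, from 34920637 to 34921054. The letters AGGTCA on either strand were in 4607 of 32851 mouse promoter windows of this length (14.02%), and 446 windows (1.36%) held 2 or more. Of other genes described below, Sohlh1, Sycp3 and Sdc4 had 1 copy each, and none was found in the windows of Crabp1, Kit, Rec8, Meioc, Prss50, Uchl1 and Dazl. Gm4969, Ccnd2, Dmrt1 and Ly6k are named here without a window. A match of these letters is a description of the window and not a binding site.

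Members made up 0.521% of WT barcodes (exact Clopper-Pearson 95% interval 0.352 to 0.743) and 4.72% of KO barcodes (4.24 to 5.24). Set against WT, the share in KO was 9.06 times as large (6.22 to 13.6). These and all intervals below cover counting error only, and a library of 1 genotype is not a replicate of it. Spermatogonia with fewer than 5 Stra8 UMIs but otherwise under the same rule, called Stra8-low here, were 95 WT and 442 KO barcodes, a ratio of shares of 3.82 (3.05 to 4.82). Early spermatocytes, barcodes with 3 or more of the 6 spermatocyte genes, were 73 and 278, a ratio of 3.13 (2.41 to 4.10). The ratio was larger for members than for either neighbouring class, with intervals that did not overlap. Within spermatogonia, members were 30 of 125 in WT (24%, 16.8 to 32.5) and 331 of 773 in KO (42.8%, 39.3 to 46.4), a ratio of 1.78 (1.23 to 2.69). The denominators differed, since barcodes rich in spermatid transcripts with at least 5000 UMIs were 3211 of all WT and 2023 of all KO barcodes, and a share of barcodes gives no number of cells per testis.

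The Stra8 counts that chose the members ran from 5 to 40 UMIs in WT and from 5 to 44 in KO, with a median of 10 in both. Just inside the threshold, 3 WT and 39 KO barcodes had 5 UMIs. Just outside it, 5 WT and 38 KO barcodes had 4 UMIs. No gap separated the classes in either library, and the threshold therefore cuts a continuous range. At the other end, 55 of 125 WT spermatogonia but 145 of 773 KO spermatogonia had no Stra8 UMI.

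Members held 364 of 1417 Stra8 UMIs of the WT library (25.7%) and 3828 of 7784 of the KO library (49.2%). Most of the others were in early spermatocytes, with 832 and 2461 UMIs. Early spermatocytes did not form a uniform group for Stra8, since 35 of 73 WT and 75 of 278 KO barcodes had none while 31 and 139 had 5 or more. In barcodes rich in spermatid transcripts, which should lack the gene, 0.467% of WT and 1.04% of KO barcodes had a Stra8 UMI once every barcode was thinned to 5000 UMIs. Any that met the rule of members, Stra8-low spermatogonia or early spermatocytes had been left out, so this low share was partly fixed. At that depth 96.7% of WT and 98.4% of KO members, which were chosen for Stra8, had a Stra8 UMI.

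The 30 WT members held 288980 UMIs, with a median of 8862 UMIs and 3125 genes per barcode. The 331 KO members held 3013954 UMIs, with a median of 7861 UMIs and 2894 genes. Counts were summed over members and scaled to a fixed total (counts per 1000000 UMIs of the sum, CPM), and WT levels have the wider intervals because they rest on fewer UMIs. Mitochondrially encoded transcripts were at a median of 4.67% of UMIs in WT members and 5.48% in KO members. Alkbh5, on chromosome 11 from 60536381 to 60558512, had 23 UMIs in WT members (79.6 CPM, exact Poisson interval 50.5 to 119), in 16 of 30 barcodes. In KO members it had 1 UMI in 331 barcodes. Its level was 53.03 CPM in WT Stra8-low spermatogonia and 49.4 in WT early spermatocytes, and no UMI was found in either class in KO. The 2 libraries shared 45 barcodes, of which 4 were KO members and none a WT member, and leaving these out left 327 KO members.

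The name was set beside 14 spermatogonial markers, each counted as present with a UMI in any member. KO members had all 14, and WT members 13, as Zbtb16 had no UMI in 30 barcodes. At 3 counts that 0 allows up to 10% of barcodes with a Zbtb16 UMI, and it sets no limit on barcodes that express the gene. Dazl, an RNA-binding protein of germ cells, was found in every member of both libraries. Uchl1, a ubiquitin hydrolase of spermatogonia, was found in 25 of 30 WT and 310 of 331 KO members. Crabp1, which binds retinoic acid in the cytoplasm, was found in 22 WT and 288 KO members, and the transcription factor gene Dmrt1 in 23 and 262. Not all of the markers set members apart. At 5000 UMIs, Dmrtb1 was found in 20% of WT and 17.1% of KO members, beside 23.6% and 34.3% of spermatid barcodes. Rhox13 was found in 60% of WT and 45.3% of KO members, beside 53.4% and 64.8% of early spermatocytes. Of the 14, Crabp1, Dmrt1, Sall4, Sohlh1, Kit, Rhox13, Stra8 and Zbtb16 belong to the rule, so their presence was partly fixed by it. A UMI in any member was also found for all 15 spermatid markers in both libraries, so the count of markers alone does not name the cells. Crabp1 and Dmrt1 are on chromosome 9 (54764748 to 54773110) and chromosome 19 (25505618 to 25604329), and Sohlh1 is on chromosome 2 (25842995 to 25847248).

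Transcripts of other cell types were also measured in members. All 15 spermatid markers were found in both libraries, with a summed level of 19465 CPM in WT and 10923 CPM in KO members, and Prm1, a protamine of condensing sperm, was found in all 30 WT and in 296 KO members. Per barcode, spermatid markers ranged from 0.0782% to 11.7% of UMIs in WT and from 0% to 18.2% in KO, with medians of 0.193% and 0.0884%. A group of 6 WT members (20%) and 34 KO members (10.3%) had more than 0.5% of their UMIs from 14 genes of round spermatids, a limit set after these values were seen. These 40 barcodes were deeper, with medians of 16768 UMIs in WT and 15500 in KO against 8730 and 7570 in the others. In the WT group Stra8 was at 572 CPM and Crabp1 at 74.2, against 1593 and 473 in the remaining members. Scrublet, a doublet caller, marked 2 WT and 25 KO members, 2 and 23 of which were in that group. Their part in the results below was measured by leaving them out. Leydig cell markers summed to 24.2 CPM in WT and 225 CPM in KO members, Sertoli markers to 13.8 and 87.3, and macrophage markers to 0 and 176. Insl3, the defining Leydig hormone gene, had 2 UMIs in WT and 89 in KO members.

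Members were set against Stra8-low spermatogonia of the same library. Genes were compared when detected in 25% or more of the barcodes of either class, with 50 or more UMIs in the 2 sums together, and called at a ratio of 2 or more. Of 3516 genes compared in both libraries, 2 were called higher in members in both (0.0569%), and none was called lower in both (0%). No test was made. The counts depended on the setting, with 64 genes lower in both libraries when members were cut at 5 Stra8 UMIs per 10000, and with 31 higher and 4 lower at a ratio of 1.5. Without the spermatid-rich barcodes 1 gene, Stra8, was called higher and 1 lower, Dmrtb1, a germ cell transcription factor of the Dmrt family, with log2 ratios of -2.78 in WT and -1.16 in KO. Within WT alone 65 genes were called higher and 124 lower of 3953, and within KO alone 21 and 2 of 4174. One of the 2 genes was Stra8, on which the classes were cut. The other was Bex3, a small X-linked gene of the brain expressed X-linked family, at 90.0 CPM in WT members against 31.6 in WT Stra8-low, and at 62.0 against 29.6 in KO. Its log2 ratio was 1.51 (0.70 to 2.31) in WT and 1.07 (0.71 to 1.43) in KO. Without the spermatid-rich barcodes its ratios were 1.27 and 1.25, but its counts no longer passed the filter.

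Other members of the Bex family on the X chromosome leaned the same way, though none reached a ratio of 2 in both libraries. Bex1 had log2 ratios of 1.00 (0.12 to 1.84) in WT and 0.83 (0.53 to 1.13) in KO. Bex4, named after its values were seen like Bex2, had ratios of 0.71 (0.10 to 1.29) and 0.49 (0.30 to 0.68). Bex2 was at 1.84 in WT (0.83 to 2.86) and 0.19 in KO, where the interval from -0.24 to 0.63 included 0. The next genes by the smaller of their ratios in the 2 libraries included Pcsk1n, an inhibitor of a prohormone protease, with 1.06 and 0.84, and Mtor, the kinase that couples nutrients to growth, with 1.27 and 0.82. Ftl1, the light chain of the iron store ferritin, had 0.79 and 0.95.

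Among genes of retinoid handling, Crabp1 was at 343 CPM in WT members against 294 in Stra8-low, and at 438 against 314 in KO, log2 ratios of 0.22 (-0.12 to 0.56) and 0.48 (0.36 to 0.60). Crabp2, another binding protein, and Cyp26b1, which degrades retinoic acid, had from 1 to 9 UMIs in the members of a library. Of the 30 genes of retinoic acid supply and response in the files, 20 of 24 with 10 or more UMIs were higher in KO members than in KO Stra8-low, with a median log2 ratio of 0.37 beside 0.02 over all genes. In WT the count was 9 of 17 with a median of 0.10 beside -0.04. Stra8 and Crabp1, 2 genes of the rule, are counted in that list.

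Of the transcription factors of differentiation, Sohlh2, the partner of Sohlh1, was at 58.8 CPM in WT members against 27.5 in Stra8-low, and at 72.0 against 42.4 in KO. Its UMIs came from 7 WT and 141 KO members. Sohlh1, a gene of the rule, was at 90.0 against 59.2 and at 150 against 92.1. Dmrt1 and Kit are rule genes as well, and since every member meets the rule in part through Stra8, which many Stra8-low barcodes lack, the rule bears on the levels of all 3 and of Crabp1 in this comparison. Dmrt1 was nearly level between the classes, with log2 ratios of -0.07 (-0.59 to 0.42) and -0.05 (-0.20 to 0.11). The receptor gene Kit was level in WT, at 62.3 against 63.2 CPM, and had a log2 ratio of 0.39 (0.09 to 0.69) in KO. Of 24 stem cell and undifferentiated genes with 10 or more UMIs in KO, 16 were lower in members than in Stra8-low, with a median of -0.43. In WT 9 could be counted, of which 6 were lower.

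Among the genes furthest below Stra8-low in both libraries, none by a ratio of 2, were genes of cell division. Mki67, a marker of cycling cells, was at 90.0 CPM in WT members against 154, and at 135 against 194 in KO, log2 ratios of -0.78 (-1.44 to -0.17) and -0.52 (-0.71 to -0.34). Knstrn, a spindle protein gene, had -0.95 (-2.15 to 0.07) and -0.89 (-1.28 to -0.51). Ccng1, a p53 target, had -0.92 and -0.63. The whole list of 51 G2 and mitotic genes did not move with them in KO, where 24 were lower and 27 higher, with a median of 0.01. In WT 38 of the 51 were lower, with a median of -0.32. Shares of barcodes with Mki67 at 5000 UMIs were 23.3% in WT members (9.93 to 42.3) and 40.4% in KO members (35.0 to 46.0), beside 45.3% and 50.1% in Stra8-low spermatogonia.

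**Figure D1:**
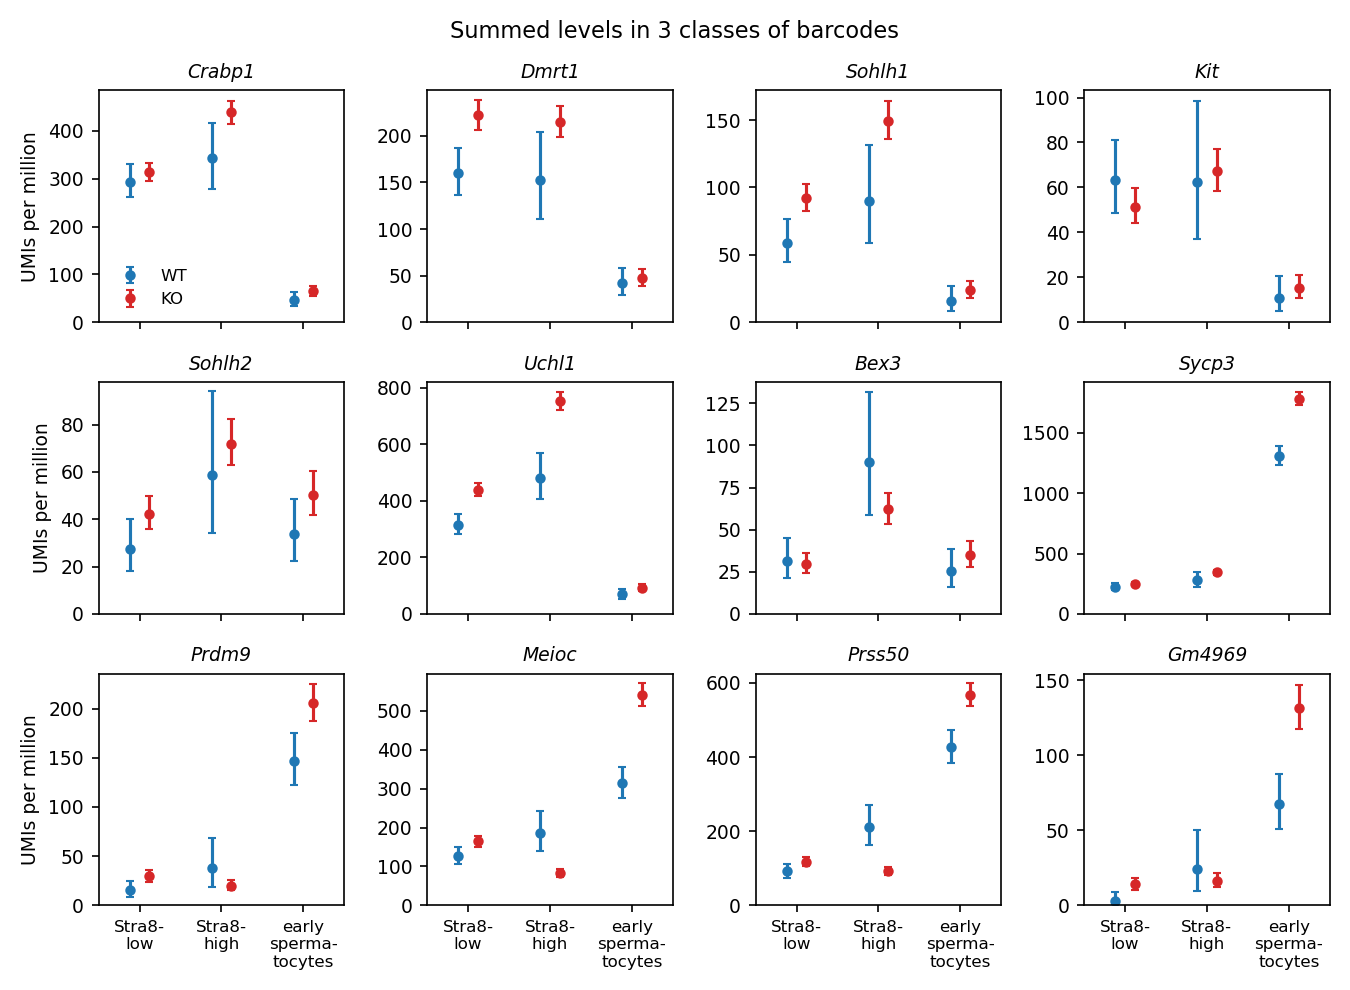
Summed level (CPM, vertical axes from 0) of 12 genes in Stra8-low spermatogonia, members (Stra8-high) and early spermatocytes, with exact Poisson 95% intervals, WT in blue and KO in red. Uchl1 and the rule genes Crabp1, Dmrt1, Sohlh1 and Kit are far lower in early spermatocytes, Sohlh2 and Bex3 are higher in members than in Stra8-low spermatogonia, and Meioc and Prss50 in members are higher in WT than in KO.

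The step from members to early spermatocytes was much larger. Of 3246 genes compared in both libraries, 165 were called higher in members in both (5.08%) and 220 lower in both (6.78%). Without the spermatid-rich barcodes 101 were called higher and 210 lower. Among the higher ones, Uchl1 had log2 ratios of 2.81 in WT and 3.03 in KO, and Marcksl1, an actin regulator, 2.64 and 2.37. Gsr, the glutathione reductase, was at 183 CPM in WT members and 22.9 in WT early spermatocytes, and at 261 and 32.6 in KO. Crabp1 had 2.87 and 2.76, but it is a gene of the rule, which members had to meet and early spermatocytes did not, so this is no result. Eif4ebp1, a brake on translation initiation, had 2.52 and 2.44, and the metabolic enzyme gene Mdh2 2.20 and 2.21. Of 14 spermatogonial markers, rule genes included, 11 of 12 with enough UMIs were higher in WT and 10 of 14 in KO. These counts were partly fixed by the rule, for the reason given for Crabp1.

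Many genes lower in members act on meiotic chromosomes. Prdm9, Rad51ap2, Meiob and Inca1 defined the early spermatocytes and are not results. Outside the rule, Sycp3, an axial element protein of meiotic chromosomes, was at 280 CPM in WT members and 1311 in WT early spermatocytes, and at 344 and 1785 in KO. The helicase gene Hfm1 was at 10.4 and 179 CPM in WT and 28.2 and 260 in KO. Of 30 genes of axial elements, cohesins and synapsis, 23 were lower in WT members and 24 in KO members, with medians of -1.05 and -1.47. In recombination, partly rule genes, the counts were 27 of 39 and 29 of 41 lower, with medians of -0.72 and -0.87. Over all genes the medians were -0.06 and 0.06. Spermatid transcripts were also lower in members, with 14 of 14 and 13 of 15 markers below their level in early spermatocytes.

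Members differed in which low transcripts of early differentiation and of meiotic entry were found in them. They were divided by Ccnd2, the cyclin of early differentiation, and by Gm4969 or Rec8, both genes of meiotic entry, a division chosen after their values were seen. Ccnd2 is on chromosome 6 (127125162 to 127152193), Gm4969 on chromosome 7 (19099046 to 19118368) and Rec8 on chromosome 14 (55618037 to 55625395). In KO, 88 of 331 members had Ccnd2 alone (26.6%, 21.9 to 31.7), 52 had Gm4969 or Rec8 alone (15.7%, 12.0 to 20.1), 18 had both and 52.3% had neither. In WT, 3 of 30 members had Ccnd2 alone (10%, 2.11 to 26.5), 11 had Gm4969 or Rec8 alone (36.7%, 19.9 to 56.1), none had both and 16 had neither. The Ccnd2 group was the larger in KO and the smaller in WT, where it held only 3 barcodes. Ccnd2 was among the 8 genes with the largest KO to WT ratios in members. The order of the groups was thus partly fixed by the choice of the gene and is no separate result. The absence of a UMI for such low transcripts does not show that a barcode lacked the gene.

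With each barcode thinned to 5000 UMIs, which left out 9 KO members, the order of the groups was kept. Ccnd2 alone was found in 2 of 30 WT members (6.67%, 0.818 to 22.1) and 82 of 322 KO members (25.5%, 20.8 to 30.6). Gm4969 or Rec8 alone was found in 8 WT members (26.7%, 12.3 to 45.9) and 34 KO members (10.6%, 7.42 to 14.4). The intervals of the libraries overlapped for both. At 3000 UMIs, counting barcodes with both as well, Gm4969 or Rec8 was found in 4 WT members (13.3%, 3.76 to 30.7) and 32 KO members (9.67%, 6.71 to 13.4), so the gap between the libraries nearly closed. Ccnd2 was then at 3.33% and 20.5%. In Stra8-low spermatogonia the shares at 5000 UMIs were closer between libraries, with 8.42% and 11.4% for Ccnd2 and 5.26% and 10.2% for Gm4969 or Rec8. Early spermatocytes had Gm4969 or Rec8 in 41.1% of WT and 45.5% of KO barcodes and Ccnd2 in 0% and 1.89%. In spermatid barcodes the background was 0.187% and 0.544% for Ccnd2 and 1.90% and 1.53% for Gm4969 or Rec8. Spermatid barcodes that met the rule of any of these classes had been left out, which bears on this background.

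**Figure D2:**
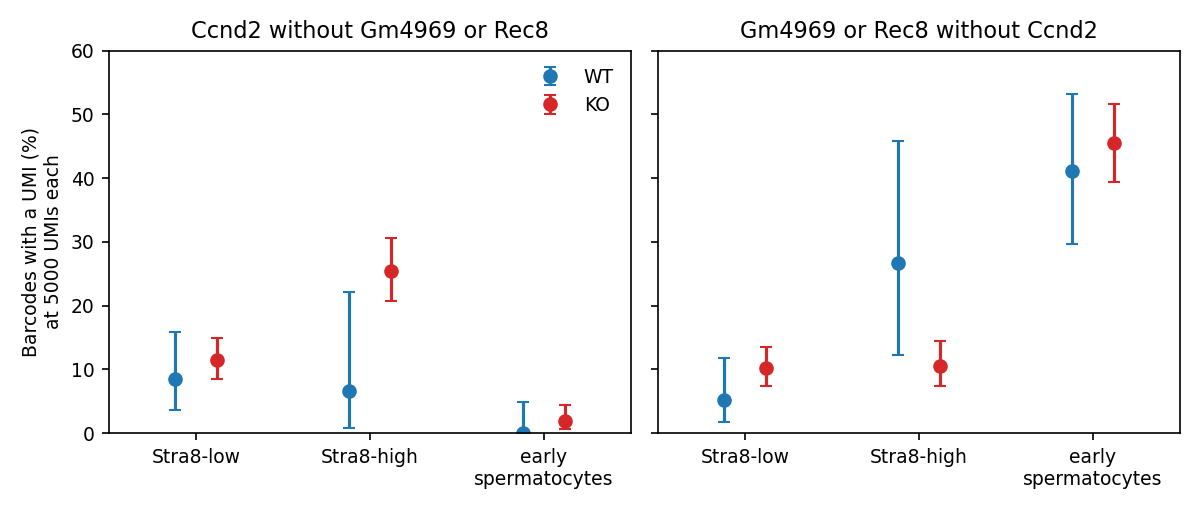
Share of barcodes (vertical axis, percent) with a UMI for Ccnd2 alone (left) and for Gm4969 or Rec8 alone (right) after thinning to 5000 UMIs, in Stra8-low spermatogonia, members (Stra8-high) and early spermatocytes, with exact Clopper-Pearson 95% intervals, WT in blue and KO in red. Members are at 6.67% in WT and 25.5% in KO on the left and at 26.7% and 10.6% on the right, with intervals that overlap, while early spermatocytes are at 41.1% and 45.5% on the right.

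Stra8 did not separate the groups. KO members with Ccnd2 alone had 1294 CPM and those with Gm4969 or Rec8 alone 1229 CPM, a log2 ratio of 0.07 (-0.07 to 0.22), although the threshold on Stra8 narrows that range. Of 4125 genes compared between the 88 and the 52 KO barcodes, 327 were called higher in the Ccnd2 group (7.93%) and 282 lower (6.84%). Ccnd2, Gm4969 and Rec8 set the groups and are no result, and the genes named for this division were chosen after its values were seen.

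The stem cell and undifferentiated list lay higher in the Ccnd2 group. Of its 15 genes with 10 or more UMIs all 15 were higher, with a median log2 ratio of 2.25 beside 0.03 over all genes, and all 4 that could be called were called. Sall4 and Zbtb16 in that list are genes of the rule. Sdc4, a heparan sulphate proteoglycan, had 215 CPM in the Ccnd2 group and no UMI in the other, at least 5.15 higher on the log2 scale when that 0 is taken as 3 UMIs. Upp1, a uridine phosphorylase, was at 79.2 and 2.01 CPM. Of the rule genes, Sall4, a stem cell transcription factor, was at 152 and 26.2 CPM, and Zbtb16 at 57.6 and 12.1. The homeobox gene Rhox10 was at 114 against 8.06 CPM and the fetal protein gene Afp at 259 against 36.3. Macrophage markers moved with this group, with a summed level of 305 CPM against 14.1. Nearly all of it was Cd74, an antigen presentation gene, with 246 UMIs in 4.55% of the Ccnd2 barcodes and none in the other group, while Lyz2 had 2 and 4 UMIs and C1qa, C1qb and C1qc had none in either. The part of these transcripts was not tested.

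The list of meiotic entry regulators had no common direction between the groups. Of its 18 genes, Gm4969, Rec8 and the rule genes Stra8 and Dmrt1 included, 8 were higher and 10 lower in the Ccnd2 group, with a median of -0.19 and 2 of 15 tested genes called each way. Of 36 recombination genes 22 were higher in the Ccnd2 group, with a median of 0.15, and of 29 genes of axial elements, cohesins and synapsis 20 were lower, with a median of -0.31. Single genes were far higher in the Gm4969 or Rec8 group. Meioc was at 240 CPM there against 21.6 in the Ccnd2 group, a log2 ratio of -3.47 (-4.28 to -2.75). Prss50, a testis serine protease gene, was at 276 against 8.40 CPM, and Ly6k, a gene of a membrane-anchored germ cell protein, at 226 against 21.6. Hist1h2ba, a testis variant of histone H2B, was at 141 against 2.40 CPM. Sycp1, the transverse filament of the synaptonemal complex, was at 1414 against 685. Prdm9, the methyltransferase that marks recombination sites and a gene of the rule, was at 44.3 against 2.40. Tex101, a germ cell surface glycoprotein, Ccnd1, a cyclin of G1 phase, and Cited1, a transcriptional coactivator, had log2 ratios of -2.01, -1.89 and -1.83.

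**Figure D3:**
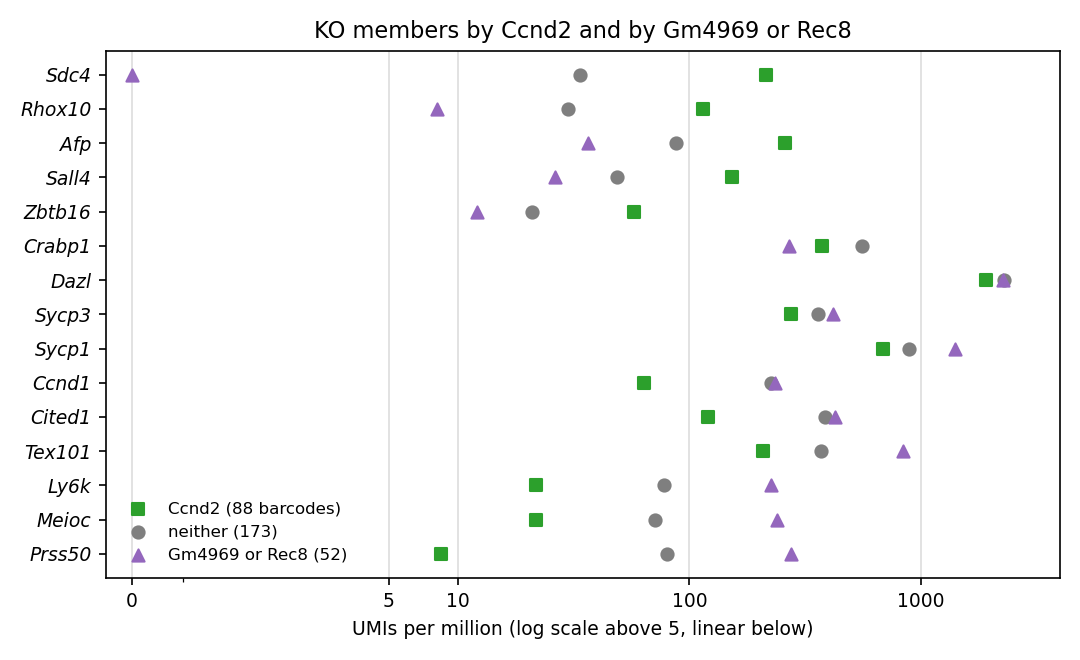
Summed level (CPM, horizontal axis, logarithmic above 5 and linear below) of 15 genes in KO members with Ccnd2 alone (squares), with neither (circles) and with Gm4969 or Rec8 alone (triangles). Sdc4, Rhox10, Afp, Sall4 and Zbtb16 are highest in the Ccnd2 group, Meioc, Prss50, Ly6k and Tex101 in the Gm4969 or Rec8 group, and for each of these genes barcodes with neither lie in between.

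The KO barcodes with neither gene lay between the groups for Meioc, at 70.9 CPM, and for Sall4, at 48.6 CPM. Crabp1 did not follow this order, since it was highest with neither, at 559 CPM against 373 and 270. In WT, Meioc was at 325 CPM in the 11 barcodes with Gm4969 or Rec8, at 125 in the 16 with neither and without a UMI in the 3 with Ccnd2. Prss50 was at 298, 194 and 0 CPM in the same order. Spermatid markers summed to 7190 CPM in the KO Ccnd2 group and 17292 in the Gm4969 or Rec8 group, and 9 of 88 against 10 of 52 barcodes were spermatid-rich. The part of those transcripts in the genes that differ was not tested.

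Between the genotypes, 202 of 4785 genes were called higher in KO members (4.22%) and 223 lower (4.66%). No test was possible with 1 library per genotype. The filter could be met through 1 library alone, so a gene could enter through the library where it was high. Between the KO groups of the division, 179 of the 202 and 74 of the 223 passed the same filter. The sums held 288980 UMIs in WT and 3013954 in KO, so a call can rest on few WT UMIs. Several genes of the division above were among the called genes. Ccnd2 set that division, so its ratio and the shares of the groups are not separate observations. Ccnd2 had 3 UMIs in WT members (10.4 CPM, 2.14 to 30.3) and 294 in KO (97.5 CPM, 86.7 to 109), a log2 ratio of 3.23 (1.67 to 5.52). Afp was at 20.8 and 132 CPM, a log2 ratio of 2.67 (1.53 to 4.12), and Sdc4 at 24.2 and 79.6, a ratio of 1.72 (0.65 to 3.05). Zbtb16, a gene of the rule, was without a UMI in WT and at 30.5 CPM in KO, at least 1.56 higher on the log2 scale. Of the stem cell and undifferentiated genes, rule genes Sall4 and Zbtb16 included, 11 of 17 with 10 or more UMIs were higher in KO and 2 lower. Only 2 genes of the list passed the filter, too few for a share, and 1 was called higher. The median log2 ratio of the list was 0.59 beside 0 over all genes. That median was 0.030 with a minimum of 10 Stra8 UMIs and 0.18 with the KO groups weighted to the WT shares.

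Among the 18 meiotic entry regulators 12 were higher and 6 lower in KO members, with 2 of 15 tested genes called in each direction and a median of 0.19. Single genes of the division, on that list or not, were lower. Ly6k was at 318 CPM in WT members (257 to 390) and 85.6 in KO (75.5 to 96.7), a log2 ratio of -1.89 (-2.24 to -1.54). Meioc was at 187 and 83.3 CPM, a ratio of -1.17 (-1.60 to -0.71), Prss50 at 211 and 91.6, a ratio of -1.20 (-1.61 to -0.78), and Rec8 at 41.5 and 16.6, a ratio of -1.32 (-2.25 to -0.28). At a threshold of 10 Stra8 UMIs the ratio of Meioc was -0.71 and that of Rec8 -0.20. Esx1, an X-linked homeobox gene, was at 218 and 63.0 CPM. Gm4969 was at 24.2 and 16.3 CPM, a log2 ratio of -0.58 with an interval from -1.73 to 0.81. The ratio of Gm4969 turned to 0.23 with a minimum of 10 Stra8 UMIs and to 0.30 with the KO groups weighted to the WT shares. Gm4969 and Rec8 help to set those groups, so a shift of either under the weighting is partly fixed and is no result. Of genes of meiotic chromosomes, Sycp1 was at 934 and 909 CPM and Sycp3 at 280 and 344.

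The order differed in the early spermatocytes of the same libraries. Meioc was at 314 CPM in WT and 541 in KO early spermatocytes, Prss50 at 426 and 568, and Gm4969 at 67.4 and 132. Rec8 was again lower in KO, at 21.7 and 9.31 CPM. The lower KO levels of Meioc and Prss50 were thus seen in members and not in the next class, and in Stra8-low spermatogonia both were also higher in KO, at 164 against 126 and 118 against 91.8 CPM.

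When the KO groups were weighted to the shares of the WT groups, 132 of the 202 and 143 of the 223 genes were still called. The log2 ratio of Meioc was then -0.51 and that of Ly6k -1.30. What sets the shares apart was not tested.

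Among the other genes with the largest ratios, Gm11942, a processed pseudogene on chromosome 4 (32964888 to 32965232), had no UMI in WT and 313 in KO members, in 189 of 331 barcodes, at least 3.32 higher on the log2 scale with the 0 taken as 3 UMIs. It was also at 98.8 CPM in KO Stra8-low spermatogonia against 1.02 in WT, and reads of a pseudogene can come from its parent gene. Ptgds, a prostaglandin synthase gene counted among the Leydig markers, had 1 UMI in WT and 339 in KO members, a log2 ratio of 5.02 (2.53 to 10.33), and Lcn2, an iron carrier, had 1 and 251, a ratio of 4.59 (2.10 to 9.90). Both were higher in KO early spermatocytes, at 202 and 189 CPM. The summed Leydig markers given above were higher in KO members as well, but Ptgds is part of that sum. Insl3, given above, was also higher in KO members, and the part of Leydig transcripts was not tested. Apbb1, an adaptor of the amyloid precursor protein, had 1 and 103 UMIs, a ratio of 3.30 (0.79 to 8.62), and Klhl24, a ubiquitin ligase adaptor, 2 and 167.

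Among the genes lower in KO, Vegfb, a growth factor gene, was at 93.4 CPM in WT members (61.6 to 136) and 15.9 in KO (11.7 to 21.1), a log2 ratio of -2.55 (-3.26 to -1.82). Smap1, which acts in vesicle transport, was at 228 and 65.4 CPM. It was lower in KO in the neighbouring classes too, at 237 and 77.3 CPM in Stra8-low spermatogonia and 148 and 54.6 in early spermatocytes. Tmem247 was at 294 and 82.9 CPM, from 8 WT and 48 KO barcodes. Of the 223 lower genes, 71 (31.8%) were more than 5 times higher in spermatid barcodes than in members, beside 4.24% of all compared genes, and 1 of the 202 higher genes was. Without the spermatid-rich barcodes, 120 of the 202 and 96 of the 223 were still called.

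Of 51 G2 and mitotic genes 42 were higher in KO members, with a median log2 ratio of 0.40 and 3 of 48 tested genes called higher, a share near the 4.22% of all genes. DNA replication genes were higher in 43 of 59, with a median of 0.21, and splicing genes in 53 of 66, with a median of 0.22 and none called. Hells, a chromatin remodeller, was at 612 and 864 CPM, and the mitotic cyclin gene Ccnb1 at 235 and 343. Of the 15 spermatid markers 1 was higher in KO and 14 lower, with a median of -0.88. Without the spermatid-rich barcodes the median of the replication list was 0.093 and that of the splicing list 0.076. The 25 m6A writers, erasers and readers showed no common direction, with 11 higher, 12 lower and a median of 0. The eraser gene Alkbh5 is deleted in KO, so its lower level was fixed by the genotype.

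**Figure D4:**
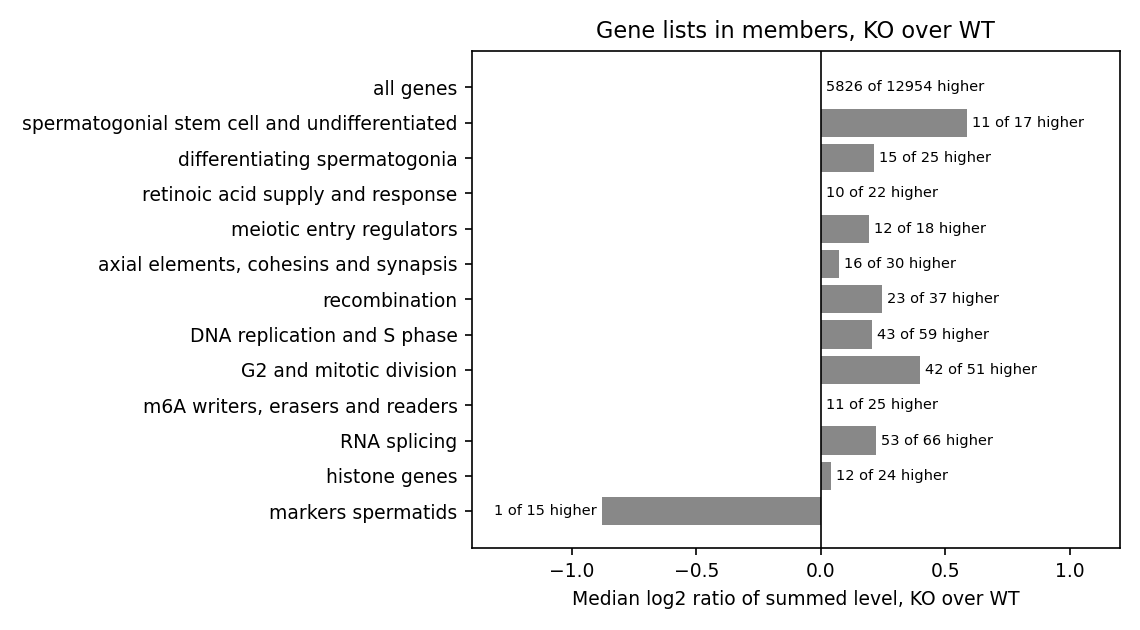
Median log2 ratio of summed level, KO over WT members (horizontal axis), for all genes and for 12 gene lists, over genes with 10 or more UMIs, with the number of higher genes beside each bar. Stem cell, G2 and mitotic genes lie right of 0, with medians of 0.59 and 0.40, the first falling to 0.030 with a minimum of 10 Stra8 UMIs, and spermatid markers left of it, with -0.88.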

How the data were processed

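Testis cells of 2 libraries, 1 WT and 1 Alkbh5 knockout, were measured by single-cell RNA sequencing on a microfluidic device (GEXSCOPE), and the UMI counts per gene and barcode are used as the authors deposited them. Per the submitters' processing notes these were made with FastQC 0.11.7, fastp 1, STAR 2.5.3a, featureCounts 1.6.2 and Seurat; the methods name a human genome build, while the deposited gene symbols are mouse symbols. Depth was 80283221 UMIs in WT and 82056760 in KO, and every barcode had at least 564 genes.

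Members were found with python 3.11.15, numpy 2.4.6, scipy 1.17.1 and pandas 2.3.3. Fewer than 4 of 7 Sertoli genes and, per 10000 UMIs, fewer than 40 UMIs of 4 Leydig genes were allowed. Counts were summed per library and class and compared as ratios, with exact Clopper-Pearson, Poisson and conditional binomial 95% intervals. With 1 library per genotype no p-value was computed, and nothing says whether a difference exceeds the spread between animals. A sum of 0 was taken as 3 UMIs in a ratio. Scrublet in scanpy 1.11.5 (expected rate 0.06, 30 components) marked doublets, which were kept. Median ratios of gene lists used genes with 10 or more UMIs, and 16 of 595 list symbols were not in the files. The script was tested on simulated data.

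The members, gene lists and rules were chosen with earlier results of these data known. Genes were named when they belonged to the rule or the marker lists, were among the 8 highest of a list or past the criterion in it, were among the 8 largest KO to WT ratios in a direction, or were among the 10 largest ratios to a neighbouring class shared by both libraries. Other genes, the division by Ccnd2, Gm4969 and Rec8, the 14 round spermatid genes and their 0.5% limit were chosen after values were seen. Positions were matched by symbol to GENCODE vM21, and half-site sequences come from RefSeq (GRCm38.p6). Alternatives to the Stra8 threshold, filters, ratio, depth and doublets were tried. A result on an item withheld here is not reported.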

Additional observations from a re-analysis of the deposited data

Results flagged for a closer look

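For 6 genes the 2 libraries gave opposite directions when members were set against Stra8-low spermatogonia, each by at least 0.5 on the log2 scale with an interval that excluded 0; with 1 library per genotype the difference between the libraries was not tested. No share of all genes stands beside this count, so it is not read as a result about the members. Meioc, which acts at meiotic entry, had a log2 ratio of 0.56 in WT and -0.98 in KO. Prdm9, a gene of the rule, had 1.32 and -0.56, and Ctcfl, the testis paralogue of the insulator protein CTCF, 1.28 and -0.88. Gnptg, of the lysosomal enzyme pathway, had 1.43 and -0.90, Gm364 had 0.78 and -0.56, and Ssr2, of the protein translocation machinery, 0.63 and -0.57. Gnptg was also among the 8 genes furthest lower in KO than in WT members. Meioc, Gm364 and Ssr2 were among the genes named for low levels in the Ccnd2 group of KO members. Groups of 1 library leave no spread in which a library could stand apart.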

How the results depend on the processing

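No paired analysis was possible because each genotype has 1 library. Sums of 30 WT barcodes limit the comparison, and genes with few WT UMIs have wide intervals. Of 130 ratios of 13 named genes under the alternatives, 120 moved by less than their counting interval and 124 kept their sign; between KO and WT members, a minimum of 10 Stra8 UMIs turned Crabp1 from 0.36 to -0.11, Kit from 0.11 to -0.27 and Gm4969 from -0.58 to 0.23, weighting to the WT split turned Gm4969 to 0.30 and Sall4 from 0.39 to -0.21, and thinning to 5000 UMIs turned Sall4 to -0.020. Gm4969 helps to set the split, so its turn under the weighting is partly fixed by that setting. The cause was not tested for any value below, beyond what each setting removes.

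KO against WT in members, the 202 higher and 223 lower genes became 333 higher with a minimum of 10 Stra8 UMIs, 636 and 679 at a ratio of 1.5, 593 and 522 with a UMI in 10% of barcodes, 127 and 143 after thinning to 5000 UMIs, and 1110 and 3282 with no filter on low counts. Against Stra8-low, the 2 higher and 0 lower genes became 5 and 4 with 10 Stra8 UMIs, 31 and 4 at a ratio of 1.5, 18 and 3 with the FindMarkers measure of 0.25, 198 and 73 with no filter, and 1 and 1 without the spermatid-rich barcodes; thinning left 1 higher, Stra8 at 5 or more per 10000 UMIs gave 64 lower, and leaving out Scrublet doublets 1 lower. Against early spermatocytes, the 165 higher and 220 lower became 445 and 530 at a ratio of 1.5, 381 and 480 with the FindMarkers measure and 1432 and 722 with no filter; thinning gave 86 higher, and leaving out the spermatid-rich barcodes 101 higher.

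The share of members in KO was 6.09% with a minimum of 3 Stra8 UMIs, 2.47% with 10, 4.24% without the spermatid-rich barcodes, and 42.8% of spermatogonia. In WT it was 0.261% with a minimum of 10 and 24% of spermatogonia, where the ratio was 1.78. Ccnd2 was found in 20.5% of KO members at 3000 UMIs and 32.0% without thinning, against 26.7% at 5000, and Gm4969 or Rec8 in 21.1% without thinning, against 11.8%. In WT, Gm4969 or Rec8 fell from 26.7% to 13.3% at 3000 UMIs, beside 9.67% in KO, and Ccnd2 from 6.67% to 3.33%. The median of the stem cell list, KO over WT, fell from 0.59 to 0.030 with a minimum of 10 Stra8 UMIs and to 0.18 under the weighting. That of the axial element list turned from 0.074 to -0.11 with Stra8 per 10000 UMIs and to -0.036 after thinning. The median of the replication list, KO over WT, was 0.093 without the spermatid-rich barcodes, that of the mitotic list 0.50 with Stra8 per 10000 UMIs, and that of the splicing list 0.34 with a minimum of 3 Stra8 UMIs, 0.11 with Stra8 per 10000 UMIs and 0.076 without the spermatid-rich barcodes. The settings without spermatid-rich barcodes were added after the data were seen.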
